A study of Mus musculus with 6 samples.

Results

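*Lin28a*, *Lin28b*, *Trim71*, *Igf2bp1*, *Igf2bp2*, *Igf2bp3* and *Hmga2* are 7 genes of the program that let-7 microRNAs keep down as embryonic cells differentiate, and they were chosen by name. All 7 were present among the 37620 genes of the count table, and all 7 passed the filter on low counts with 16023 genes in all. PolyA RNA was sequenced from E14 mouse embryonic stem cells (ESCs), a line of strain 129/Ola kept in 15% serum, with 3 libraries each for the wild-type and the *Ube2d3*-S138A genotype. The S138A cells carry on both alleles, through CRISPR/Cas9 editing, an alanine in place of the serine phosphorylated near the end of UBE2D3, an enzyme that donates ubiquitin to many E3 ligases. The sources used here describe work with a mutant clone, so what belongs to the clone and what belongs to the mutation cannot be told apart, and revertant cells were not analysed here. The wild-type libraries are called 1 to 3 after their labels, and the S138A libraries A, B and C, since their columns carry no replicate label. No label says whether libraries came from separate cultures, so p-values measure the spread between these libraries, which may be technical.

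LIN28A and LIN28B are RNA-binding proteins with a cold shock domain and zinc knuckles that bind let-7 precursors and block their maturation. TRIM71, first known as LIN-41, is a TRIM-NHL protein that binds and represses messenger RNAs. IGF2BP1, IGF2BP2 and IGF2BP3 bind messenger RNAs, *Igf2* among them, and affect their stability, transport and translation, whereas HMGA2 is an AT-hook protein of chromatin and not an RNA-binding protein. Mature let-7 pairs through its seed with sites in the 3′ untranslated regions (UTRs) of *Lin28a*, *Lin28b*, *Trim71*, *Hmga2* and the *Igf2bp* genes, so the LIN28 proteins and let-7 oppose each other.

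The RefSeq table on GRCm38.p6 held 9 distinct let-7 family 5p sequences that share the seed GAGGUAG, and 3 are shown to let the seed (bases 2 to 8, in capitals) be read against the sites that follow.
let-7a-5p: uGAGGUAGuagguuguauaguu
let-7g-5p: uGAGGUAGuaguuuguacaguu
miR-98-5p: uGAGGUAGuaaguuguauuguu
LIN28 is known to recognise the letters GGAG in the loop of let-7 precursors. Of 12 family hairpins, 11 had both arms given, and 8 of these held GGAG (capitals) between the arms while 3 did not. Anywhere in the hairpin, 9 of the 12 held it. Over all 1005 hairpins of the table, 44.5% held GGAG. Of the loops below, those of let-7a-1 and let-7e hold the letters and that of let-7c-2 does not.
let-7a-1 loop: uuagggucacacccaccacugGGAGauaa
let-7e loop: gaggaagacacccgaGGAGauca
let-7c-2 loop: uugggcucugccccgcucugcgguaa

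The complement of the seed, CTACCTC, was searched on the transcript strand of the 3′ UTR of the longest coding transcript (GENCODE M21, GRCm38). All 7 genes held at least 1 match and 5 held at least 2, with 20 matches in all. *Lin28b*, *Trim71*, *Igf2bp1* and *Hmga2* held 4 each, *Lin28a* held 2, and *Igf2bp2* and *Igf2bp3* held 1 each. Of 20981 genes with a 3′ UTR, 8.85% held at least 1 match and 1.07% at least 2, and among the 6088 genes whose 3′ UTR was at least as long as the shortest here (1784 bases) the shares were 19% and 3.15%. The 5 genes with at least 2 matches have longer 3′ UTRs, of 2775 to 6337 bases. The 7 genes were chosen as genes that let-7 keeps down, so these shares do not test them for matches. Of the 20 matches, 13 are followed by A, a base known to favour microRNA sites, and 7 by another base. The first match of each gene, all 7 followed by A, is printed with the match in capitals. A match is a description of the sequence and does not show that the site is bound.
Lin28a: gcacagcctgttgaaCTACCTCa
Lin28b: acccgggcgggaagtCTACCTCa
Trim71: aacattgcctaagtcCTACCTCa
Igf2bp1: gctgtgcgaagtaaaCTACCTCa
Igf2bp2: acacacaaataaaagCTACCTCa
Igf2bp3: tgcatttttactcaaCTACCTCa
Hmga2: gccgacattcaatttCTACCTCa

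The 7 genes lie on 6 chromosomes in GRCm38, all on the minus strand: *Lin28a* at chr4:134003330-134018841, *Lin28b* at chr10:45376620-45486395, *Trim71* at chr9:114507133-114564369, *Igf2bp1* at chr11:95957163-96005940, *Igf2bp2* at chr16:22059009-22163299, *Igf2bp3* at chr6:49085223-49214957 and *Hmga2* at chr10:120361275-120476469. The counts themselves were made on another build, mm9, and count reads over the whole gene. Exons of *Igf2bp3* overlap those of *Malsu1* on the opposite strand, which held 264 to 454 counts, and the strand setting of the counting is not stated, so part of either count could belong to the other gene. The antisense neighbour *Gm13061* of *Lin28a* held 3 to 12 counts and *1700006J14Rik* at *Hmga2* held 7 to 33.

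The libraries held 33227593 to 37169770 counts. Along the first principal component, with 57.15% of the variance, wild-type 3 and S138A C lay apart from the other 4 libraries, so differences are also given without this pair. The second component, with 25.6% of the variance, separated the genotypes. Wild-type libraries lay at 23.15 to 28.81 on it and S138A libraries at −29.63 to −21.31. *Ube2d3* mRNA did not pass the test, with 412 ± 93.6 CPM (counts scaled to a common library size) in wild-type and 395 ± 117 in S138A cells (SD, n = 3 each), and its count does not check the single-codon mutation. The ESC markers *Pou5f1*, *Sox2* and *Nanog* were present in all 6 libraries, and the summed level of 10 ESC markers was 7179 to 7777 CPM in wild-type and 7468 to 7874 CPM in S138A libraries. The levels below are CPM scaled with TMM factors, and fold changes of S138A against wild-type cells come from edgeR's quasi-likelihood test with Benjamini-Hochberg adjustment over all genes tested. With all 6 libraries this test called 0 of the 7 genes and 0 of 16023 genes (0%) at an adjusted p under 0.05. At an unadjusted p under 0.05 it held 2 of the 7 genes and 14.2% of all genes. DESeq2 called 1 of the 7 genes and 4.97% of all genes.

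**Figure D1:**
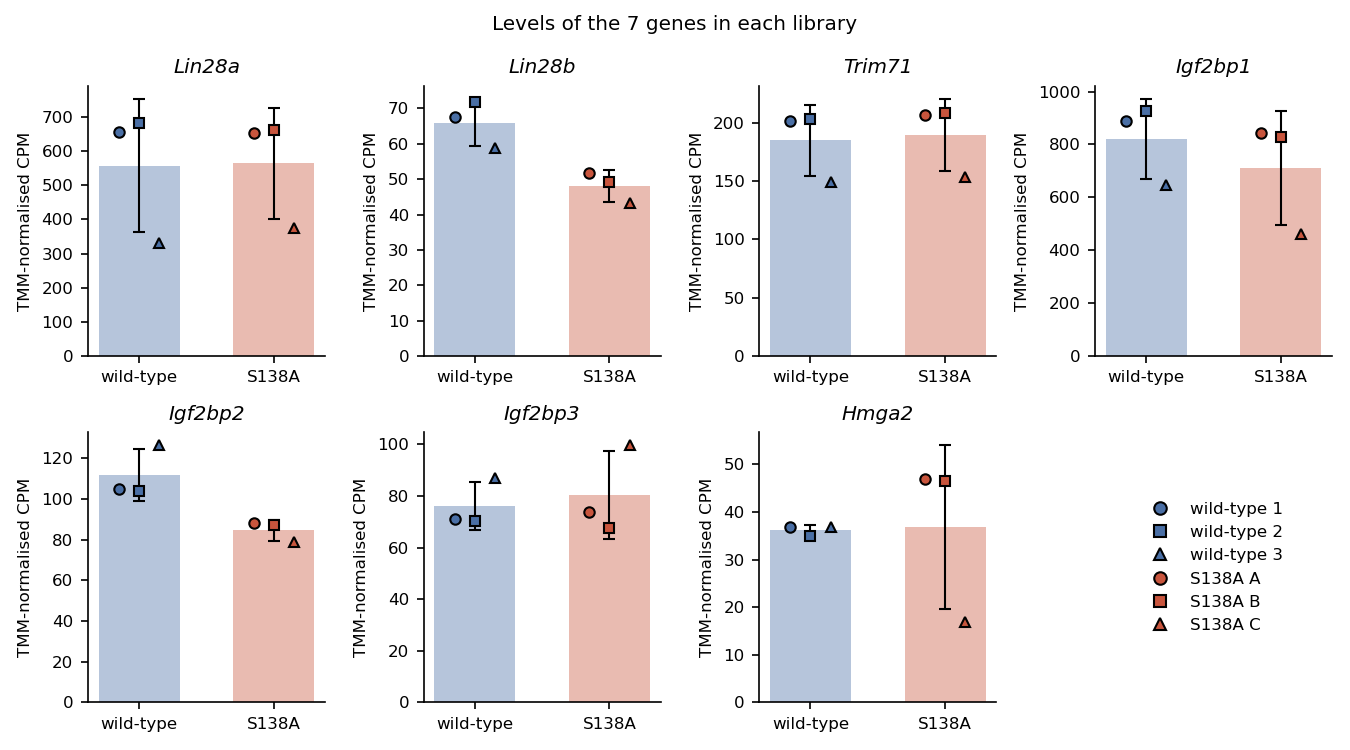
Level of each gene (TMM-normalised CPM, vertical axis from 0, a separate scale for each gene) in the 3 wild-type (blue) and 3 S138A libraries (red). Points are libraries, bars the means and error bars the SD (n = 3). The groups do not overlap for *Lin28b* and *Igf2bp2*, and wild-type 3 and S138A C (triangles) lie below the other 4 for *Lin28a*, *Trim71* and *Igf2bp1* and above them for *Igf2bp3*.

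*Lin28b* was lower in all 3 S138A libraries than in any wild-type library. It stood at 67.5, 71.9 and 58.7 CPM in wild-type 1 to 3 and at 51.8, 49.2 and 43.2 CPM in S138A A to C. The means were 66.0 ± 6.70 and 48.1 ± 4.41 CPM (SD, n = 3 each), a ratio of 0.728 and a log2 fold change of −0.46 (SE 0.12), which did not pass edgeR's test (adjusted p = 0.21). The difference was nearly the same in the pair that stood apart (−0.44 on the log2 scale, S138A C minus wild-type 3) and among the other 4 libraries (−0.46 from mean log2 CPM). It passed with DESeq2 (adjusted p = 0.0302), in edgeR with a replicate block on the final digit of the column names (−0.46, adjusted p = 0.0106) and in edgeR on the 4 other libraries alone (−0.47, adjusted p = 0.0026).

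*Lin28a* did not differ beyond the spread between libraries. Its levels were 658, 683 and 332 CPM in wild-type cells and 653, 663 and 376 CPM in S138A cells, with a log2 fold change of 0.02 (SE 0.32, adjusted p = 0.989). The 2 low values were those of wild-type 3, at 0.496 of the mean of wild-type 1 and 2, and of S138A C, at 0.572 of S138A A and B. On the log2 scale these steps within a genotype were −1.01 and −0.81, beside a genotype difference of −0.03 in edgeR on the other 4 libraries. Counted per kilobase of exon, *Lin28b* was 4.52%, 4.64% and 7.79% of *Lin28a* in wild-type 1 to 3 and 3.50%, 3.27% and 5.06% in S138A A to C. The wild-type mean of this ratio was 0.0565, and 0.0832 with the length of the longest coding transcript. The groups overlap in this ratio, and an exact permutation test of its log2 value gave p = 0.3 (two-sided, difference −0.50, 0.833 after adjustment over 5 ratios), where 0.1 is the smallest p that 3 against 3 libraries allow. Within the 3 pairs of the replicate block the ratio was lower in S138A each time, and the exact paired permutation p was 0.25, the smallest that 3 pairs allow. The difference was −0.24 without wild-type 3.

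*Trim71* levels were 202, 203 and 150 CPM in wild-type and 207, 209 and 154 CPM in S138A libraries. The genotypes were close in each part of the data, with a log2 fold change of 0.04 (SE 0.17, adjusted p = 0.95) over all libraries, 0.04 in the pair that stood apart and 0.03 among the other 4. *Trim71* per kilobase was 0.151 ± 0.0366 of *Lin28a* in wild-type cells and 0.148 ± 0.0231 in S138A cells (SD, n = 3 each), with exact permutation p = 1. With the length of the longest coding transcript the wild-type mean was 0.132.

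*Igf2bp2* was the other gene whose groups did not overlap. It stood at 105, 104 and 126 CPM in wild-type 1 to 3 and at 88.2, 87.3 and 78.7 CPM in S138A A to C, with means of 112 ± 12.7 and 84.7 ± 5.20 CPM and a ratio of 0.758. The log2 fold change of −0.40 (SE 0.11) did not pass edgeR's test (adjusted p = 0.225). It passed with the replicate block (−0.40, adjusted p = 0.0322) and in the 4 other libraries (−0.25, adjusted p = 0.0131), and DESeq2 gave an adjusted p of 0.051. The size of the difference was uneven, at −0.68 on the log2 scale between S138A C and wild-type 3 and −0.25 among the other 4. Wild-type 3 was at 1.21 of wild-type 1 and 2, whereas S138A C was at 0.898 of S138A A and B. Over all genes, 10.9% had every S138A library below every wild-type library and 11.3% had every S138A library above, beside 2 and 0 of the 7 genes here.

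*Igf2bp1*, the most abundant of the IGF2BP genes, was at 889, 926 and 647 CPM in wild-type and 842, 829 and 462 CPM in S138A libraries. Wild-type 3 was lower than S138A A and B, so the groups overlap, and the log2 fold change of −0.21 (SE 0.25, adjusted p = 0.757) did not pass, nor did it with the replicate block (−0.24, adjusted p = 0.092) or in the 4 other libraries (−0.12, adjusted p = 0.1). Within each pair of the block the S138A value was the lower. *Igf2bp3* was at 71.1, 70.2 and 86.8 CPM in wild-type and 73.8, 67.7 and 99.6 CPM in S138A cells, with a log2 fold change of 0.08 (SE 0.17, adjusted p = 0.868), and of −0.0011 in the 4 other libraries. *Igf2bp3* was highest in the same 2 libraries in which *Igf2bp1* was lowest.

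Per kilobase, *Igf2bp2* was 15.4%, 14.7% and 25.5% of *Igf2bp1* in wild-type 1 to 3 and 13.7%, 13.8% and 22.3% in S138A A to C. *Igf2bp3* was 9.49%, 8.99% and 15.9% of *Igf2bp1* in wild-type and 10.4%, 9.69% and 25.6% in S138A A to C. Their wild-type means were 0.185 and 0.115, and 0.305 and 0.186 with the length of the longest coding transcript. Both ratios were highest in the libraries that stood apart. Neither genotype difference passed (exact permutation p = 0.5 for each, two-sided, 0.833 after adjustment over the 5 ratios). In all 3 pairs of the block the first ratio was lower and the second higher in S138A, with an exact paired permutation p of 0.25 for each.

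*Hmga2* showed the least even pattern of the 7. Its levels were 36.8, 35.0 and 36.9 CPM in wild-type cells, with S138A A and B above all of them at 46.8 and 46.6 CPM and S138A C below at 16.9 CPM. S138A C held 626 *Hmga2* counts, against 1107 to 1714 in the other 5 libraries, and was at 0.361 of S138A A and B and 0.457 of wild-type 3. Wild-type 3 was at 1.03 of wild-type 1 and 2, so for this gene, as for *Igf2bp2*, the 2 libraries that stood apart did not move together. The log2 fold change was 0.02 (SE 0.36, adjusted p = 0.989) over all libraries, −0.10 with the replicate block (adjusted p = 0.817), 0.36 without S138A C (adjusted p = 0.129) and 0.38 in the 4 other libraries (SE 0.06, adjusted p = 0.00578). Leaving out S138A A or S138A B instead gave −0.19 each, so the sign over all libraries was not stable. *Hmga2* per kilobase was 3.30%, 3.02% and 6.56% of *Lin28a* in wild-type and 4.23%, 4.14% and 2.65% in S138A A to C (exact permutation p = 0.8). The wild-type mean of this ratio was 0.043, and 0.067 with the length of the longest coding transcript.

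Across the settings, edgeR with the replicate block called 2 of the 7 genes, *Lin28b* and *Igf2bp2*, both lower, beside 19.8% of all genes called and 9.13% called lower. When the model let wild-type 3 and S138A C differ from the rest it called the same 2, beside 27.6% of all genes. In the 4 other libraries it called 3, *Lin28b* and *Igf2bp2* lower and *Hmga2* higher, beside 29.6% of the genes tested. The p-values of that fit measure only the spread between wild-type 1 and 2 and between S138A A and B, the closest replicates.

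**Figure D2:**
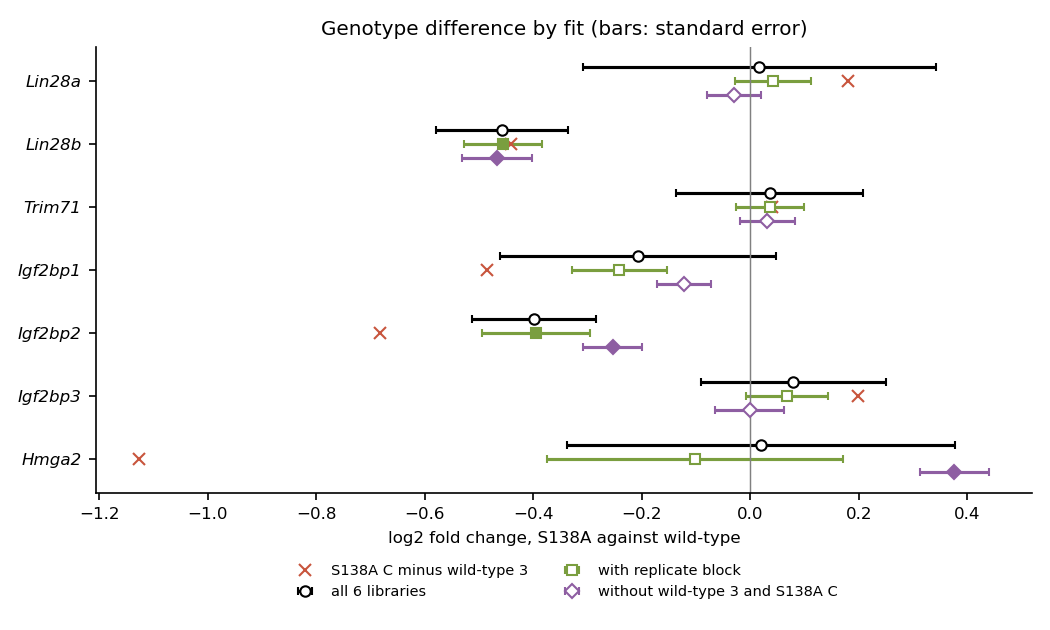
Log2 fold change of S138A against wild-type cells (horizontal axis) for the 7 genes, from edgeR on all 6 libraries (circles), with the replicate block (squares) and without wild-type 3 and S138A C (diamonds), with error bars of 1 SE. Filled symbols have an adjusted p under 0.05, and crosses are S138A C minus wild-type 3 in log2 CPM. *Lin28b* lies near −0.46 in each case, whereas for *Hmga2* the cross at −1.13 and the diamond at 0.38 lie on opposite sides of 0.

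Levels between genes were compared as CPM per kilobase of exon. In wild-type cells they ran from *Lin28a* at 139.6 ± 49.0 through *Igf2bp1* at 84.8 ± 15.6, *Trim71* at 19.8 ± 3.29, *Igf2bp2* at 15.1 ± 1.72, *Igf2bp3* at 9.32 ± 1.15 and *Lin28b* at 7.28 ± 0.739 to *Hmga2* at 5.35 ± 0.158 (SD, n = 3). *Lin28a* ranked 287 and *Igf2bp1* 480 among 15454 genes with a length, and *Hmga2* ranked 6742. *Lin28a* was above *Igf2bp1* in every library, and both were above the other 5 genes in every library. The order of *Trim71* and *Igf2bp2* was not fixed, since *Igf2bp2* was the higher in wild-type 3 and, with the length of the longest coding transcript, also in the wild-type mean (28.7 against 19.8). *Lin28b* was above *Hmga2* in all 3 wild-type libraries, and *Hmga2* was above *Lin28b* in S138A A and B but not in S138A C. *Igf2bp3* was above *Igf2bp2* only in S138A C.

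**Figure D3:**
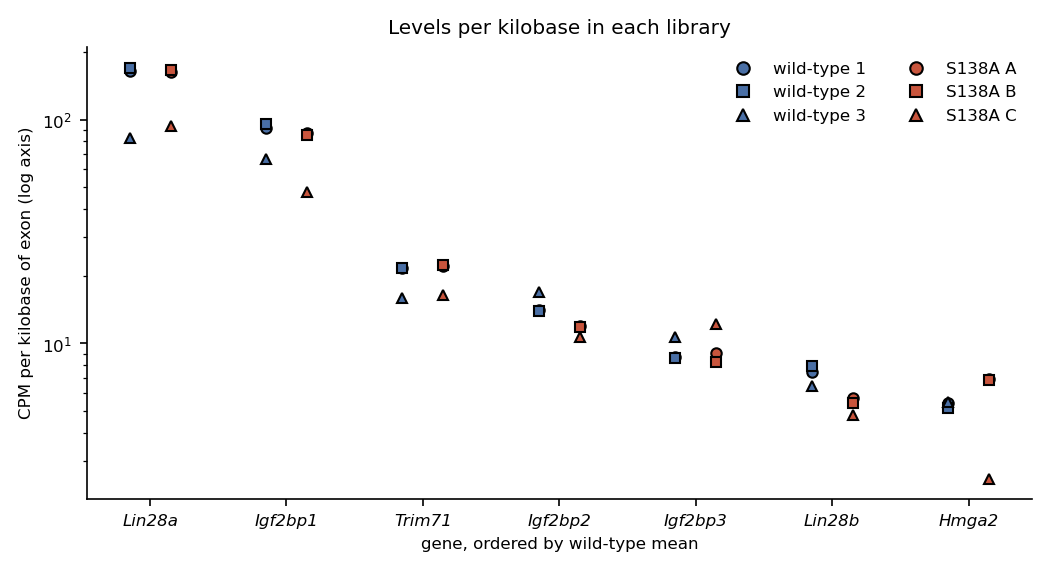
CPM per kilobase of exon (log axis) of the 7 genes, ordered by wild-type mean, in wild-type (blue) and S138A libraries (red). *Lin28a* and *Igf2bp1* lie above the other 5 genes in all 6 libraries, and the lowest point is *Hmga2* in S138A C.

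Over the 6 libraries log2 CPM of *Lin28a* and *Trim71* ran together (Pearson r = 0.993) and *Igf2bp1* ran opposite to *Igf2bp3* (r = −0.963). *Lin28b* and *Lin28a* were less alike (r = 0.391), while *Lin28b* and *Igf2bp2* gave r = 0.722. These are descriptions over n = 6 libraries that fall into separate sets, with wild-type 3 and S138A C apart, so no p is given. The genes named next were picked for the highest r among 13347, so their high values follow in part from that choice. Of 13347 genes with a mean of at least 1 CPM, those with the pattern most like each gene were *Glyr1* and *Gm11218* for *Lin28a* (r = 0.9998 and 0.9993), *Gpbp1* and *Rpl39-ps* for *Lin28b* (0.9967 and 0.9959), *Exoc3l* and *Sox7* for *Trim71* (0.9997 each), *Cep76* and *Gtf2f1* for *Igf2bp1* (0.9987 and 0.9978), *Cs* and *Gm7729* for *Igf2bp2* (0.9994 and 0.999), *Adssl1* and *Ndrg4* for *Igf2bp3* (0.9996 and 0.999) and *Npr3* and *Tax1bp3* for *Hmga2* (0.9935 and 0.9921).

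The let-7 microRNAs themselves were not measured, because a polyA library does not hold mature microRNAs. Of 10 let-7 family gene rows in the table, 4 had 0 counts in every library, *Mirlet7d* held 10 to 28 counts and no other row exceeded 3. Among 22 genes that process let-7 or act with LIN28, 0 were called and the median log2 fold change was −0.00, beside 0.02 over all genes. Of the 22, 1 had an unadjusted p under 0.05, beside 14.2% of all genes. The gene below that p was *Msi2*, an RNA-binding Musashi protein, at 132, 120 and 150 CPM in wild-type and 82.4, 76.1 and 102 CPM in S138A libraries (−0.62, adjusted p = 0.191, and 0.00508 with the replicate block). *Khsrp*, which promotes let-7 maturation, was at 172 ± 12.5 and 198 ± 1.39 CPM (adjusted p = 0.39), and *Hnrnpa1*, which binds let-7 precursors, at 949 ± 31.6 and 837 ± 17.7 CPM (adjusted p = 0.395). *Zc3h12a*, an RNase, differed by 0.51 on the log2 scale (adjusted p = 0.408), and 0.47 with the replicate block (adjusted p = 0.0447). With that block 2 of the 22 genes were called higher and 2 lower, beside 19.8% of all genes called in either direction.

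Among 25 genes known as let-7 targets, 0 were called by the test on 6 libraries, and the median was 0.04. At an unadjusted p under 0.05, 1 was higher and 3 were lower, beside 14.2% of all genes in either direction. With the replicate block 3 were called higher and 6 lower, beside 1717 higher and 1463 lower of 16023 genes (19.8%). *Mycn*, a transcription factor, was at 158, 159 and 139 CPM in wild-type and 107, 111 and 100 CPM in S138A libraries, with no overlap (−0.52, adjusted p = 0.187, with the replicate block 0.00687). *Irs2*, which carries the signal of the insulin and IGF receptors, differed in the other direction, at 23.2, 23.8 and 20.9 against 33.8, 35.9 and 36.4 CPM (0.64, adjusted p = 0.17, with the replicate block 0.00816). *Nras*, a small GTPase, had a value of −0.28 (adjusted p = 0.328, with the replicate block 0.0313). Grouped by CTACCTC matches, with the 7 genes left out, the median log2 fold change was 0.02 over 12543 genes with 0 matches, 0.04 over 1268 genes with 1 and 0.08 over 181 genes with 2 or more. The replicate block called 20.8%, 23.2% and 21.5% of these classes.

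TRIM71 represses *Cdkn1a*, the gene of the cell cycle inhibitor p21, and the other 9 genes of its list are further known targets or partners. None of the 10 had an unadjusted p under 0.05, beside 14.2% of all genes, and the median was −0.02. *Cdkn1a* was at 35.6, 40.0 and 77.8 CPM in wild-type and 62.4, 58.8 and 112 CPM in S138A libraries, with the highest value of each genotype in the library that stood apart (0.60, adjusted p = 0.511). With the replicate block it was called higher (0.63, adjusted p = 0.0075), the only call among these 10, beside 19.8% of all genes called. *Rbl2*, *Nanos1* and *Shcbp1* had log2 fold changes of 0.28, −0.14 and −0.18 (adjusted p = 0.628, 0.735 and 0.746).

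Of 12 genes whose RNA is known to be bound by IGF2BP proteins, 4 were higher and 1 was lower at an unadjusted p under 0.05, beside 14.2% of all genes in either direction, and the median was 0.11. The replicate block also called 4 higher and 1 lower, beside 19.8% of all genes. This list was chosen with earlier results of these data known and includes *Igf2* and *H19*, so the counts do not test IGF2BP targets as a set. *Igf2*, a growth factor, was at 74.9 ± 4.67 CPM in wild-type and 187 ± 21.2 CPM in S138A cells (1.32, adjusted p = 0.0548, with the replicate block 0.00271). Its imprinted neighbour *H19* was at 15.6, 14.1 and 68.4 CPM in wild-type and 1.59, 1.52 and 2.59 CPM in S138A libraries, with the highest value in wild-type 3. The log2 fold change of *H19* was −4.10 (adjusted p = 0.177, with the replicate block 0.00271) and −3.25 without wild-type 3 and S138A C. *Mapk4*, a kinase whose RNA IGF2BP1 binds, had a value of 0.72 (adjusted p = 0.21, with the replicate block 0.0264) and the laminin gene *Lamb2* of 0.70 (0.218 and 0.011). *Actb* and *Myc*, further known targets, were at 2733 ± 727 and 2548 ± 975 CPM and at 58.6 ± 23.9 and 57.6 ± 28.5 CPM. These 2 genes were added beside those with the smallest p after their values were seen.

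Among 10 tested paralogs and relatives, *Trim2*, a TRIM-NHL gene like *Trim71*, was at 69.3, 67.2 and 49.0 CPM in wild-type and 31.2, 34.2 and 16.8 CPM in S138A libraries. Its groups did not overlap (−1.17, adjusted p = 0.198, with the replicate block 0.00398), while *Trim3* had a value of 0.40 (adjusted p = 0.462, with the replicate block 0.0285). The cold shock gene *Ybx3* had a value of −0.28 (adjusted p = 0.454, with the replicate block 0.0282). The list's median was −0.10, and the replicate block called 1 member higher and 3 lower of 10, beside 19.8% of all genes called and 9.13% called lower.

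**Figure D4:**
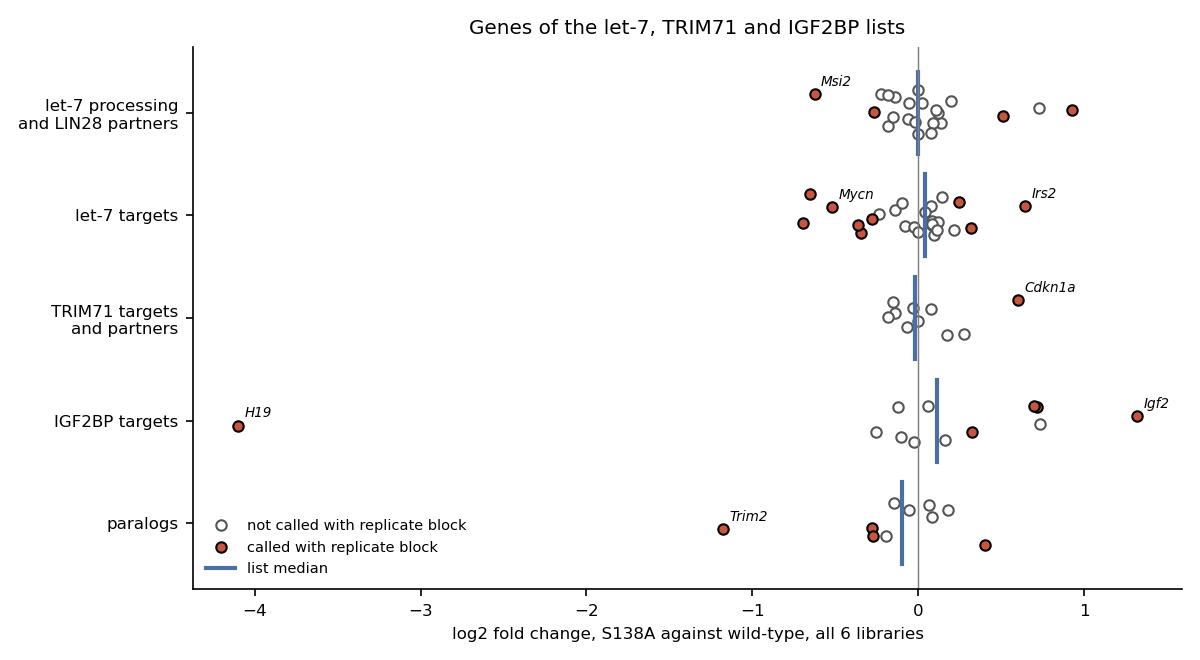
Log2 fold change of S138A against wild-type cells over all 6 libraries (horizontal axis) for each tested gene of the let-7 processing, let-7 target, TRIM71, IGF2BP and paralog lists. Filled points have an adjusted p under 0.05 with the replicate block, and blue lines are list medians, which lie between −0.10 and 0.11. *H19*, *Trim2*, *Msi2* and *Mycn* lie below 0 and *Igf2*, *Irs2* and *Cdkn1a* above.

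Markers of other cells were examined because HMGA2 and the IGF2BP proteins are made in many embryonic cell types. Of 8 fibroblast and feeder markers 6 were tested, and 3 were higher at an unadjusted p under 0.05, beside 14.2% of all genes in either direction. These were *Thy1* at 1.02, *Col3a1* at 1.62 and *Col1a1* at 1.22 on the log2 scale (adjusted p = 0.187, 0.2 and 0.21). *Col3a1* was low, with means of 0.537 CPM in wild-type and 1.655 CPM in S138A cells. *Col1a1* was at 36.15 CPM in wild-type 3 and 37.94 CPM in S138A C. The 6 tested markers summed to 42.8 to 72.6 CPM in wild-type and 79.1 to 115 CPM in S138A libraries. *Col1a2* was at −0.26 (adjusted p = 0.78), and the untested markers *Dcn* and *Lum* held 0 to 5 and 0 to 1 counts. Primitive endoderm markers summed to 91.1 to 101 CPM in wild-type and 76.1 to 86.4 CPM in S138A libraries, and *Lama1*, at 76.4 ± 3.31 and 56.7 ± 1.97 CPM, was most of that sum. *Lama1* had a value of −0.43 (adjusted p = 0.187, with the replicate block 0.0128). It was the only 1 of the 8 tested with an unadjusted p under 0.05, beside 14.2% of all genes. The replicate block called it alone among the 8, beside 19.8% of all genes. The other 7 tested markers of that list summed to 17.8 to 21.7 and 20.9 to 27.8 CPM, and the median over all 8 was 0.07, with 4 above and 4 below 0. Formative and primed markers summed to 433 to 639 and 380 to 572 CPM with a median of −0.33 and *Pou3f1* at 0 in all libraries. The only 1 of the 7 tested with an unadjusted p under 0.05 was *Zic2*, which was higher (0.44, adjusted p = 0.225), beside 14.2% of all genes. The replicate block called 2 higher, *Zic2* (adjusted p = 0.0144) and *Sox3*, and 2 lower, *Otx2* and *Dnmt3b*, beside 19.8% of all genes. Neural markers summed to 120 to 214 and 104 to 229 CPM, with *Pax6* at −1.69. In ESC markers 1 of 10 had an unadjusted p under 0.05, *Zfp42* at −0.35 (adjusted p = 0.337), beside 14.2% of all genes. *Klf4* was at 0.41 (adjusted p = 0.3715, with the replicate block 0.0251). With that block 2 of the 10 ESC markers were called higher and 1 lower, beside 19.8% of all genes. The part of these markers in the *Lin28b* and *Igf2bp2* differences was not tested, and in bulk RNA fewer cells that express a gene and less RNA per cell cannot be told apart.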

How the data were processed

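RNA was extracted with ERCC spike-in RNA added, and 500 ng of it went into a stranded polyA library. The count table holds 0 spike-in rows, so values are relative to each library. Per the submitters' processing notes, the authors used CASAVA version 1.8.4 for base calls, TopHat2 version 2.0.11 for alignment to the mouse build NCBIM37 (mm9), and featureCounts for the deposited raw read counts per gene, for which the version and the settings on strand and shared reads are not given in the sources used here. The paper does not describe this RNA-seq experiment.

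Counts were filtered with filterByExpr (minimum count 10, minimum total 15), scaled by TMM and tested with edgeR version 4.0.16 (quasi-likelihood, Benjamini-Hochberg adjustment, adjusted p under 0.05) in R version 4.3.3. DESeq2 version 1.42.0 and limma version 3.58.1 served as alternatives, with other scalings and filters, each library left out, a replicate block, and wild-type 3 and S138A C modelled or left out. Symbols and exon lengths came from GENCODE M21 (GRCm38), matching 15454 of 16023 tested genes. Log2 CPM used a prior count of 2. For each pair of replicates the median squared difference of counts was at least 2.19 times that of sampling noise, so none was counted as a duplicate. This value was 2.19 for wild-type 1 and 2 and 3.04 for S138A A and B. It was 22.5 to 38.4 for the pairs with wild-type 3 or S138A C. Libraries held at least 33227593 counts and the 7 genes at least 626 counts in each, so the counting error of a level was at most a few percent. For *Hmga2* in wild-type cells the spread between libraries was no larger than that.

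The 7 genes and all gene lists were chosen with earlier results of these data known. The rule for named genes took the 7, up to 4 of each list by smallest unadjusted p, *Ube2d3*, and the 2 genes most correlated with each of the 7, and not all list genes so chosen are described. *Actb* and *Myc*, and the markers *Pou5f1*, *Sox2*, *Nanog*, *Dcn*, *Lum* and *Pou3f1*, were named outside this rule after their values were seen. *Dicer1*, *Ago2*, *Hmga1*, *Myc* and *Sall4* each stand in 2 lists. The replicate block pairs libraries by the final digit of the column names, not by labels. Deviations from the group means correlated at 0.53, 0.493 and 0.753 within these pairs, and crossing the first and second gave 0.515 and 0.526, so those pairs cannot be told apart.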

Additional observations from a re-analysis of the deposited data

How the results depend on the processing

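The number of genes called was 0 over all 6 libraries, 4 with no filter beyond 1 count, 797 with DESeq2, 3180 with the replicate block, 4418 when wild-type 3 and S138A C could differ from the rest (the 2-library term), 4756 in the 4 other libraries, and 0 to 79 with 1 library left out (79 without S138A C). Of the 7 genes, DESeq2 called 1, the block and the term 2 each and the 4 libraries 3. *Lin28b* and *Igf2bp2* kept their direction under every alternative run. *Lin28a* turned to −0.029 in the 4 libraries and ranged from −0.25 to 0.24 with 1 library left out. Such ranges were −0.10 to 0.16 for *Trim71*, −0.35 to 0.022 for *Igf2bp1*, −0.11 to 0.18 for *Igf2bp3* and −0.19 to 0.36 for *Hmga2*. *Igf2bp3* was −0.0011 in the 4 libraries. *Hmga2* was −0.13 with limma-voom and −0.10 with the replicate block and with the term. The log2 ratio difference ranged, with 1 library left out, from −0.69 to −0.24 for *Lin28b* to *Lin28a*, −0.39 to 0.10 for *Igf2bp2* to *Igf2bp1*, −0.14 to 0.57 for *Igf2bp3* to *Igf2bp1*, −0.37 to 0.19 for *Hmga2* to *Lin28a* and −0.13 to 0.19 for *Trim71* to *Lin28a*, and in the 4 libraries the last pair were 0.41 and 0.061. The median of IGF2BP targets was 0.22 in the 4 libraries. The cause of these changes was not tested. The replicate block changed no other call among the 7 genes.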
